A study of Rattus norvegicus with 6 samples.

Results

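Polyamine synthesis and catabolism was followed through 9 genes in rat myocardium: Odc1, Amd1, Srm and Sms of the synthetic route, Oaz1, Oaz2 and Azin1 of the antizyme system, and Sat1 and Smox of the catabolic route. They were taken by name from a table of 32623 genes, and all 9 were among the 13964 genes that were expressed highly enough to be tested. Total RNA came from myocardial tissue of wild-type male rats, in 3 samples from sham-operated animals and 3 from animals with the left anterior descending coronary artery ligated, both groups labelled 30 min. All animals had been anesthetized, and for sham rats no ligation is described. Age, strain and the sampled region of the heart are not given in the sources used here, and because tissue was sequenced in bulk, fewer cells of a type and less RNA per cell cannot be told apart.

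Putrescine, spermidine and spermine are small cations that bind RNA and are needed for translation and growth. Ornithine decarboxylase (Odc1) makes putrescine, and S-adenosylmethionine decarboxylase (Amd1) supplies the aminopropyl groups that spermidine synthase (Srm) and spermine synthase (Sms) add. Antizymes (Oaz1 and Oaz2) are made by a polyamine-induced frameshift during translation and carry ornithine decarboxylase to the proteasome, while antizyme inhibitor (Azin1) binds antizymes and releases the enzyme. Spermidine/spermine acetyltransferase (Sat1) marks polyamines for export or oxidation, and spermine oxidase (Smox) turns spermine back into spermidine and yields hydrogen peroxide. In heart muscle, ornithine decarboxylase is known for its induction by adrenergic stimulation and during hypertrophic growth.

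Each sample had between 68529126 and 79591989 counts. All rats are labelled male, but 3 genes of the Y chromosome held 26 counts in sham replicate 1 and 1772 to 4318 counts elsewhere. Summed FPKM (fragments scaled by gene length and library size) of 5 atrial cardiomyocyte markers was 48344 and 39345 in sham replicates 1 and 3 but 215.5 in sham replicate 2, and it was 9610, 2078 and 1279 in ischemia replicates 1 to 3. Ventricular cardiomyocyte markers were present in every sample, with a summed FPKM over 7 genes of 25938, 33107 and 24124 in sham and 17365, 8733 and 16083 in ischemia. None of these 7 passed an edgeR adjusted p of 0.05, against 5.18% of all tested genes in the higher and 1.53% in the lower direction. In 3 of the 7 every ischemia sample lay below every sham sample, against 15.0% of all tested genes. Summed FPKM of 10 neutrophil and monocyte markers was 142, 109 and 191 in sham and 1258, 8428 and 1991 in ischemia. Of the 9 that were tested, 7 rose in edgeR at an adjusted p under 0.05, against 5.18% of all tested genes. Ischemia replicate 2 therefore had the highest myeloid and the lowest ventricular marker level.

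Of the 9 polyamine genes, only Srm passed the adjusted threshold in the quasi-likelihood test of edgeR. It rose 3.65-fold. The adjusted p over all tested genes was under 0.05 for 5.18% of genes in the higher direction and for 1.53% in the lower direction. Odc1, Azin1, Sat1 and Sms were also higher in ischemia at an unadjusted p under 0.05, and Oaz2 was lower, so that 5 of the 9 genes lay in the higher and 1 in the lower direction by that looser criterion. Over all tested genes the corresponding shares were 18.2% and 14.2%. These counts fell to 1 higher and 0 lower without sham replicate 1, and to 2 and 0 without sham replicate 2. They were 4 and 1 without sham replicate 3, 3 and 1 without ischemia replicate 2, and 3 and 0 without ischemia replicate 3. Without ischemia replicate 1 they rose to 6 higher and 1 lower. In 4 of the 9 genes, Odc1, Srm, Sms and Sat1, every ischemia sample lay above every sham sample, and in Oaz2 every ischemia sample lay below. Separation of that kind was found in 23.6% of all tested genes in the higher and 15.0% in the lower direction. None of the 9 met the study's criterion of a log2 fold change above 2 with p under 0.01, which 3.31% of tested genes met, but Srm met it under total-count scaling (log2 fold change 2.01), without sham replicate 2 (2.22) and without ischemia replicate 1 (2.05). The median log2 fold change of the 9 genes was 1.01, against -0.0015 over all tested genes, and without ischemia replicate 2 it was 0.45, against -0.045. DESeq2, run as an alternative on the same counts, called Odc1 (adjusted p 0.0196), Srm (8.48e-05), Sat1 (0.0300) and Oaz2 (0.0424), that is 3 of the 9 genes higher and 1 lower, where its shares over all tested genes were 14.8% and 12.5%. Without ischemia replicate 1, edgeR called Odc1, Srm, Azin1 and Smox higher and Oaz2 lower, 4 and 1 of the 9 genes, against 10.7% and 7.98% of all tested genes in that fit.

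**Figure D1:**
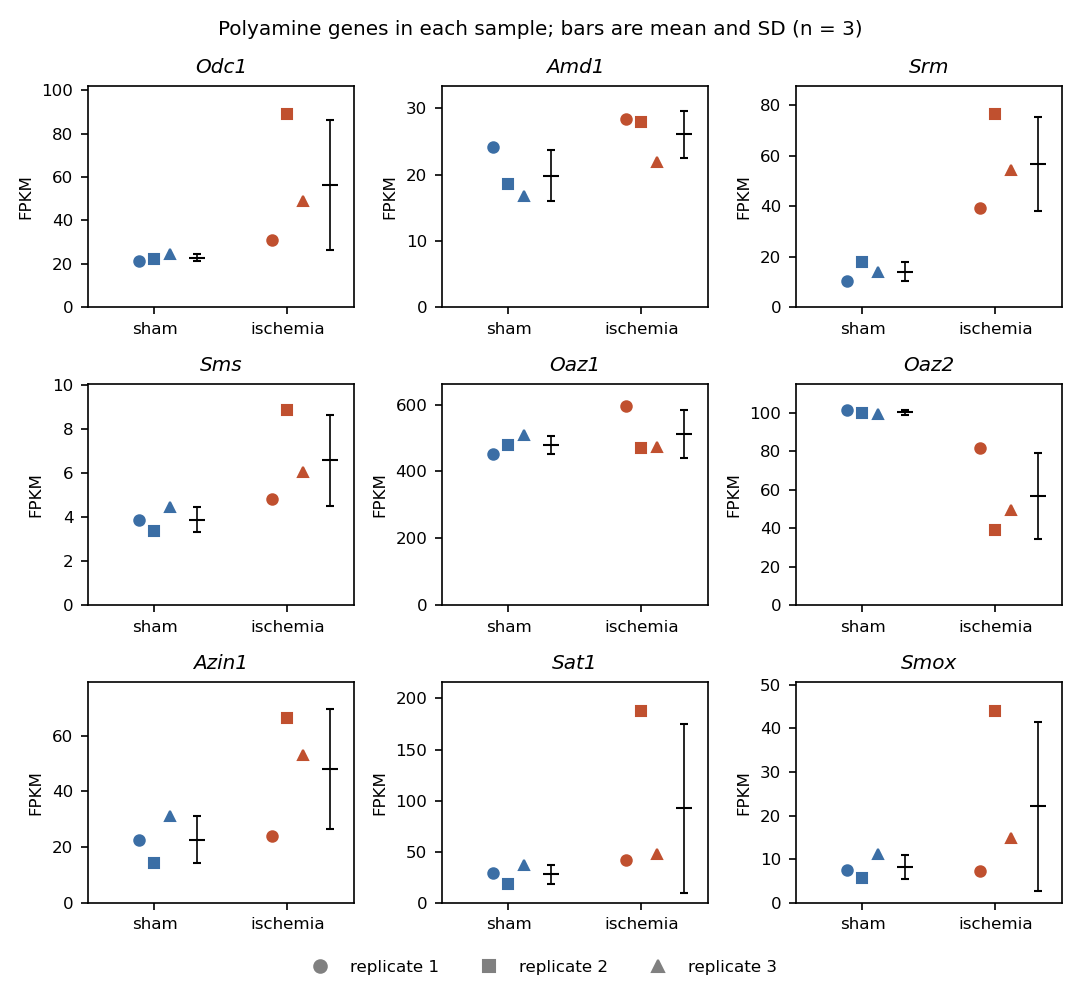
FPKM of the 9 polyamine genes in each of the 6 samples, with a separate linear axis from 0 for each gene. Symbols mark the replicate number, blue is sham and red is ischemia, and the black bars give mean and SD over 3 samples. Ischemia replicate 2 is the highest sample in Odc1, Srm, Sms, Azin1, Sat1 and Smox and the lowest in Oaz2. The Srm panel shows only the row named Srm. With a second spermidine synthase row, LOC100912604, added, ischemia replicate 3 was the highest at 106.6 FPKM and replicate 2 was at 81.6 FPKM.

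In sham myocardium the antizymes were the most abundant of the 9 transcripts per length. Oaz1 had a mean of 479 ± 27.9 FPKM and Oaz2 of 100.1 ± 1.08 FPKM (SD, n = 3), which placed them within the top 1.15% and 5.01% of tested genes by sham level. Sat1 followed at 28.1 ± 9.31, Odc1 at 22.8 ± 1.71, Azin1 at 22.7 ± 8.43 and Amd1 at 19.8 ± 3.86 FPKM, and the sham ranges of these 4 overlapped. Srm, at 14.1 ± 3.80 FPKM, overlapped with Amd1 above it and with Smox below it, which was at 8.17 ± 2.78 FPKM. That level counts only the row named Srm. With a second spermidine synthase row of the table, LOC100912604, the sum was 23.7 ± 3.51 FPKM in sham (20.7, 22.7 and 27.55 FPKM), within the range of Sat1 and clear of Smox, and 88.5 ± 15.8 FPKM in ischemia. Sms was the lowest at 3.89 ± 0.550 FPKM and did not overlap with Smox. In ischemia Oaz1 was still the highest at 512 ± 71.3 FPKM and Sms the lowest at 6.59 ± 2.08 FPKM, while Sat1, Oaz2, Srm, Odc1 and Azin1 had means between 47.9 and 92.4 FPKM with overlapping ranges.

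The synthetic enzymes were compared first. Their summed FPKM was 59.8, 62.3 and 59.7 in sham and 103.3, 202.5 and 131.3 in ischemia, so the groups did not overlap. With the second spermidine synthase row added, the sums were 70.1, 67.0 and 73.45 FPKM in sham against 141, 208 and 184 FPKM in ischemia, again without overlap. Of the 4 genes, 1 was higher past the adjusted threshold, against 5.18% of all tested genes, and 3 were higher at an unadjusted p under 0.05, against 18.2%. None of the 4 was lower by either criterion.

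Odc1 (ENSRNOG00000005424, listed at chr6:42852683-42859927 on the plus strand), which encodes the enzyme that commits ornithine to putrescine, was at 21.4, 22.4 and 24.7 FPKM in sham and at 30.8, 89.3 and 49.1 FPKM in ischemia. The ischemia samples were all higher than the sham samples, and their SD of 30.0 FPKM compared with 1.71 FPKM in sham. Odc1 had a log2 fold change of 1.19 ± 0.37 (SE; 95% interval 0.30 to 2.07), or 2.28-fold, with an edgeR adjusted p of 0.0900. Leaving out ischemia replicate 2 gave 0.77 (edgeR adjusted p 0.151), and leaving out ischemia replicate 1 gave 1.46 (edgeR adjusted p 0.0264). A small gene on the same strand, Gm22748, overlaps Odc1 in the table, and RefSeq lists 10 Odc1 pseudogenes that the table does not name. RefSeq also lists 3 pseudogenes of Amd1, 2 of Sms and 2 of Oaz1 that the table does not name. Whether Gm22748 or any of these pseudogenes share reads with the 4 genes was not tested.

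Amd1 (ENSRNOG00000000585, chr20:45384000-45399694, minus strand) had 24.2, 18.6 and 16.7 FPKM in sham and 28.4, 27.9 and 21.9 FPKM in ischemia. Sham replicate 1 exceeded ischemia replicate 3, so the groups overlapped. Its log2 fold change of 0.30 ± 0.20 (95% interval -0.19 to 0.79) had an edgeR adjusted p of 0.333.

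Srm (ENSRNOG00000046379, chr3:14588870-14591974, plus strand), which makes spermidine from putrescine, was at 10.4, 18.0 and 13.8 FPKM in sham and at 39.3, 76.4 and 54.2 FPKM in ischemia. All ischemia samples were higher than all sham samples. Srm rose by a log2 fold change of 1.87 ± 0.36 (95% interval 1.004 to 2.73), or 3.65-fold with an interval of 2.01 to 6.64, and the edgeR adjusted p was 0.0413. The exact permutation test gave the smallest p that 3 samples against 3 allow, 0.1, as it also did for Odc1, Sms, Oaz2 and Sat1. The call was not kept without sham replicate 1 (log2 fold change 1.65, edgeR adjusted p 0.160), sham replicate 2 (2.22 and 0.0819), sham replicate 3 (1.78 and 0.140), ischemia replicate 2 (1.65 and 0.0681) or ischemia replicate 3 (1.85 and 0.130). In the fits without a sham sample or without ischemia replicate 3, 0 of 13964 genes passed the adjusted threshold in edgeR, while 3020 to 3809 had an unadjusted p under 0.05.

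The second spermidine synthase row, LOC100912604 (chr5:165405168-165408320), is described as spermidine synthase-like. Of its 10 nearest neighbours in the table, 9 are those of the Srm gene that RefSeq places on chromosome 5, among them Mtor, Exosc10, Masp2 and Tardbp, whereas the row named Srm shares 0 of 10. The row named Srm held 952, 1747 and 1198 counts in sham against 3876, 6850 and 4600 counts in ischemia. LOC100912604 held 976, 471 and 1242 counts in sham against 3902, 490 and 4631 counts in ischemia. The second row thus took 50.6%, 21.2% and 50.9% of the reads of both rows in sham and 50.2%, 6.68% and 50.2% in ischemia, an even split in 4 samples and an uneven one in both samples numbered 2. Whether all samples were aligned and counted in the same way is not given in the sources used here and was not tested, so values of the row named Srm may not be comparable between samples with an even and an uneven split.

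Both rows together held 1928, 2218 and 2440 counts in sham and 7778, 7340 and 9231 counts in ischemia. In CPM (counts scaled to the library size by the trimmed mean of M-values, TMM) sham had sums of 25.3, 33.9 and 33.1, and ischemia had 96.2, 91.5 and 138. The ischemia sample with the most reads on the row named Srm, replicate 2, had the lowest sum of its group in counts and in CPM. In summed FPKM, ischemia replicate 1 was the lowest at 77.4 and replicate 2 was at 81.6. The SD of log2 CPM was 0.557 in sham and 0.421 in ischemia for the Srm row and 0.235 and 0.325 for the sum. The sum rose by a log2 fold change of 1.82 ± 0.24 (95% interval 1.25 to 2.39), or 3.53-fold, with an edgeR adjusted p of 0.0269. LOC100912604 alone had a log2 fold change of 1.75 ± 0.82 (95% interval -0.22 to 3.72) and an edgeR adjusted p of 0.189. With each sample left out in turn, the log2 fold change of the sum lay between 1.61 and 1.92 and its edgeR adjusted p between 0.0164 and 0.156, under 0.05 without ischemia replicate 1 or ischemia replicate 2 (0.0302). The sum was formed after the values had been seen.

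**Figure D2:**
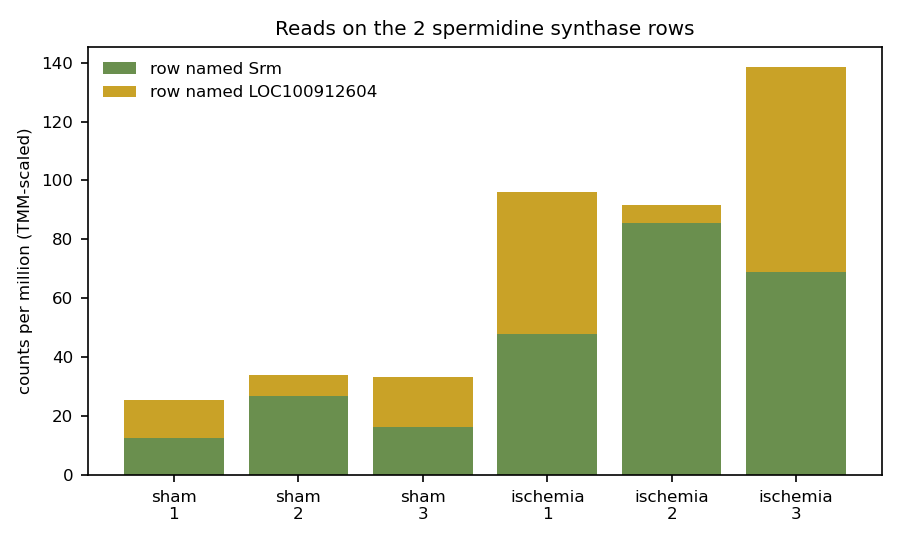
Stacked bars of TMM-scaled CPM on the rows named Srm (green) and LOC100912604 (yellow) in each sample, on a linear axis from 0. The rows share reads evenly in sham 1, sham 3, ischemia 1 and ischemia 3 and unevenly in sham 2 and ischemia 2, and the summed bars are 25.3 to 33.9 in sham and 91.5 to 138 in ischemia.

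Promoter sequence was taken for 8 of the 9 genes from RefSeq (assembly GRCr8, from 250 bases before to 50 after the start of the gene) and searched on both strands for the E-box CACGTG, the letters that Myc and Max bind, the AP-1 letters TGANTCA and the TATA box TATAAA. The E-box was found in Srm and Oaz1 and in 6.42% of 33469 promoters of that length. The TATA box letters were found in Amd1 and Oaz1 and in 14.2% of promoters, and the AP-1 letters in none of the 8 and in 7.33% of promoters. Only the exact letters were counted. The Odc1 sequence holds the variant TATAAG, which was not searched. The windows around the matches are shown because Srm and Oaz1, with log2 fold changes of 1.87 and 0.0039, both hold the E-box letters. RefSeq has its Srm on chromosome 5, where the table lists LOC100912604, whose own interval included 0, while the row named Srm is listed on chromosome 3. Matches are in capitals, each window is read 5′ to 3′ on the strand of the gene, and the E-box reads the same on both strands.
Srm, E-box 173 bases before the start, chr5:164308809-164308854, plus strand: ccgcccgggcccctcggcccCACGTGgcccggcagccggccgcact
Oaz1, E-box 234 bases before the start, chr7:9537199-9537240, minus strand: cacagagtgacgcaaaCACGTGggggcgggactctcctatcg
Oaz1, TATA box 28 bases before the start, chr7:9536993-9537038, minus strand: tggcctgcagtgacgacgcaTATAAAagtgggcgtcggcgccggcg
Amd1, TATA box 29 bases before the start, chr20:45265986-45266031, minus strand: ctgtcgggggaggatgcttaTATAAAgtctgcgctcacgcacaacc
None of the searched motifs overlapped another in these windows. In Odc1 the E-boxes that Myc is known to use lie in the first intron, which was not searched here. The 250 bases before the start were 78.4% G or C in Srm, 78.0% in Odc1 and 72.8% in Sms, and between 52.8% (Sat1) and 67.6% (Oaz2) in the other 5.

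Sms (ENSRNOG00000007688, chrX:40363646-40415109, plus strand), the last step to spermine, was at 3.85, 3.36 and 4.46 FPKM in sham and at 4.82, 8.88 and 6.07 FPKM in ischemia. All ischemia samples were higher, replicate 1 by the smallest margin. The log2 fold change was 0.67 ± 0.26 (95% interval 0.03 to 1.30) with an edgeR adjusted p of 0.142. The ratio of Srm to Sms FPKM was 2.71, 5.36 and 3.09 in sham and 8.16, 8.60 and 8.93 in ischemia, a mean difference of 1.27 on the log2 scale. This ratio uses the row named Srm, which held about as many reads as LOC100912604 in 4 samples and most of the reads in both samples numbered 2. With both rows summed it was 5.38, 6.75 and 6.18 in sham and 16.05, 9.19 and 17.6 in ischemia, so the groups stayed separate while the ischemia ratios no longer lay close together.

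None of the antizymes and the antizyme inhibitor passed the adjusted threshold. Their summed FPKM, most of it from Oaz1, was 576, 593 and 638 in sham and 700.4, 574 and 576 in ischemia. Oaz1 (ENSRNOG00000019459, chr7:11752412-11754508, minus strand) was at 452, 478 and 508 FPKM in sham and at 595, 469 and 474 FPKM in ischemia. Replicate 1 was the highest ischemia sample, and the other two lay inside the sham range. The log2 fold change was 0.0039 ± 0.22 (95% interval -0.52 to 0.53) (edgeR adjusted p 0.991), its sign changed with the scaling, and the exact permutation test gave p = 0.7.

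Oaz2 (ENSRNOG00000015953, chr8:71216178-71228713, plus strand) was at 101, 99.99 and 99.1 FPKM in sham, the smallest SD relative to the mean among the 9 genes, and at 81.6, 39.2 and 49.2 FPKM in ischemia. All ischemia samples were lower, with replicate 1 nearest to sham. Oaz2 had a log2 fold change of -0.91 ± 0.32 (95% interval -1.67 to -0.14), or 0.534-fold, with an edgeR adjusted p of 0.114. Leaving out ischemia replicate 1 gave -1.28 (edgeR adjusted p 0.0281), and leaving out ischemia replicate 2 gave -0.67 (0.176).

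Azin1 (ENSRNOG00000005333, chr7:77345646-77372398, minus strand), which resembles ornithine decarboxylase but has no enzyme activity, was at 22.4, 14.5 and 31.3 FPKM in sham and at 24.1, 66.2 and 53.2 FPKM in ischemia. Ischemia replicate 1 lay inside the sham range and the other two above it. Azin1 had a log2 fold change of 1.01 ± 0.40 (95% interval 0.05 to 1.97) with an edgeR adjusted p of 0.140. Leaving out ischemia replicate 1 gave 1.31 (edgeR adjusted p 0.0355), and leaving out ischemia replicate 2 gave 0.77 (0.293). Per length, Odc1 was 0.0473, 0.0467 and 0.0487 of Oaz1 in sham and 0.0518, 0.191 and 0.104 in ischemia. The ratio in ischemia replicate 1 was close to sham and those in replicates 2 and 3 were higher, with a mean log2 difference of 1.08. Ratios were not tested.

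**Figure D3:**
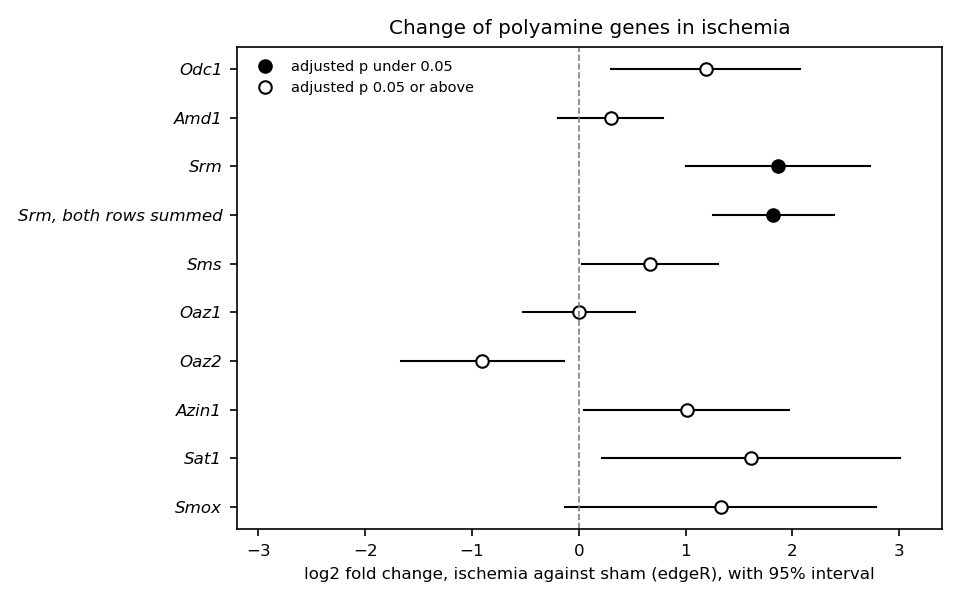
Log2 fold change of ischemia against sham with its 95% interval from edgeR for the 9 polyamine genes and for the sum of both spermidine synthase rows, filled where the adjusted p was under 0.05. Srm and the sum are filled, at 1.87 and 1.82, and the intervals of Amd1, Oaz1 and Smox include 0.

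Both catabolic genes had their highest value in ischemia replicate 2. Sat1 (ENSRNOG00000003809, chrX:43625169-43629765, plus strand), the gene of the rate-limiting acetyltransferase, was at 28.9, 18.3 and 36.9 FPKM in sham and at 42.1, 188 and 47.4 FPKM in ischemia. The groups did not overlap, but ischemia replicates 1 and 3 lay close to sham replicate 3. Sat1 had a log2 fold change of 1.61 ± 0.58 (95% interval 0.22 to 3.01), or 3.06-fold, with an edgeR adjusted p of 0.119. Leaving out ischemia replicate 2 gave 0.66 (edgeR adjusted p 0.158).

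Smox (ENSRNOG00000021255, chr3:124068865-124102240, plus strand) was at 7.63, 5.70 and 11.2 FPKM in sham and at 7.35, 44.0 and 14.9 FPKM in ischemia. Ischemia replicate 1 lay inside the sham range. Smox had a log2 fold change of 1.33 ± 0.60 (95% interval -0.12 to 2.78) with an edgeR adjusted p of 0.180, leaving out ischemia replicate 2 gave 0.44 (edgeR adjusted p 0.493), and leaving out ischemia replicate 1 gave 1.72 (edgeR adjusted p 0.0484). The ratio of Sat1 to Odc1 FPKM was 1.35, 0.82 and 1.49 in sham and 1.37, 2.10 and 0.965 in ischemia, so the groups overlapped. The sample with the highest Odc1, Azin1, Sat1 and Smox, ischemia replicate 2, was also the one with the summed myeloid marker level of 8428 FPKM, and the part of myeloid cells in these values was not tested.

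The genes most like Odc1 over the 6 samples, by Pearson correlation of log2 CPM, were Cacul1 (r = 0.9987), Nrros (0.9979) and Cass4 (0.9978). Those most like Sat1 were Rufy4 (0.9985), Gdf15 (0.9975) and Elmo1 (0.9965). Gdf15, a stress-induced cytokine of the TGF-beta family, was at 0.921, 0.501 and 1.33 FPKM in sham and at 1.60, 10.95 and 1.74 FPKM in ischemia, the same order of samples as Sat1. These coefficients describe 6 libraries, share the contrast between the groups and were the highest among tested genes with names other than placeholders.

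**Figure D4:**
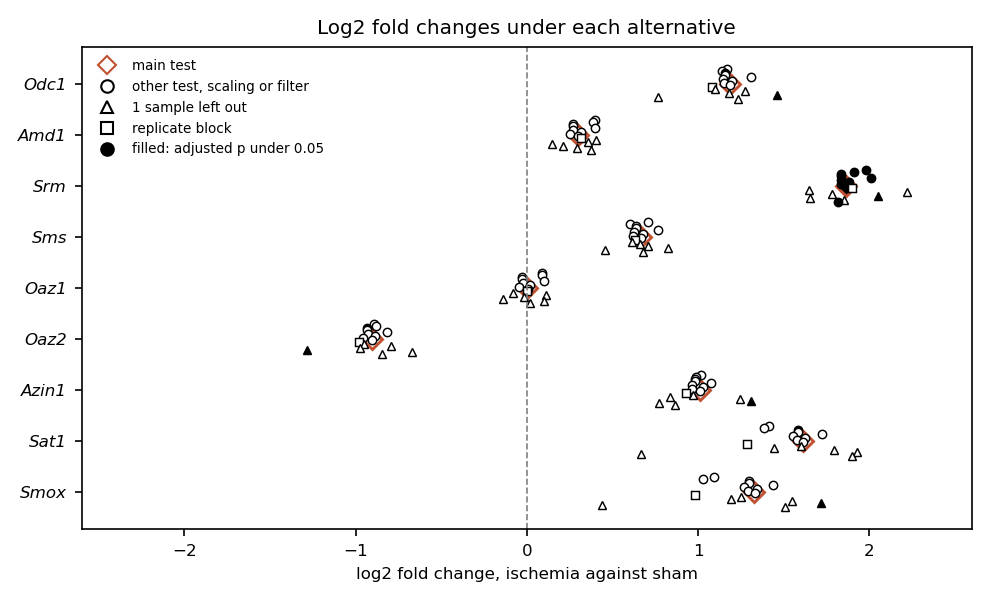
Log2 fold change of each polyamine gene under the main edgeR test (red diamonds), other tests, scalings and filters (circles), each sample left out (triangles) and the replicate block (squares), filled where the adjusted p was under 0.05. Srm stays between 1.65 and 2.22, Oaz1 lies on both sides of 0, and Sat1 and Smox reach their lowest values, 0.66 and 0.44, without ischemia replicate 2.

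Another 37 genes of the wider polyamine pathway were listed, of which 29 were tested and 8 had a mean FPKM under 0.5. Of the 29, 4 rose in edgeR, among them Myc, Slc3a2 and Eif5a, and 0 fell, against 5.18% and 1.53% of all tested genes. At an unadjusted p under 0.05, 10 were higher and 5 lower, against 18.2% and 14.2% of all tested genes. Groups were separate in 12 genes in the higher and 5 in the lower direction, where the shares of all tested genes were 23.6% and 15.0%, and the lower counts were therefore near those of the whole table. A log2 fold change above 2 with p under 0.01 was met by 3 of the 29, against 3.31% of all tested genes. The median log2 fold change of the 29 genes was 0.58.

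Genes of transport and of the use of spermidine were compared next, and each of these lists held 1 gene that rose. Slc3a2, the heavy chain of several amino acid transporters, was at 38.2, 29.0 and 48.1 FPKM in sham and at 82.8, 118 and 77.9 FPKM in ischemia, a log2 fold change of 1.19 ± 0.21 with an edgeR adjusted p of 0.0365. Eif5a, the translation factor whose lysine is turned into hypusine with spermidine as donor, was at 272, 294 and 344 FPKM in sham and at 758, 716 and 645 FPKM in ischemia. Its ischemia samples lay close together and ischemia replicate 2 was not the highest. Eif5a rose by a log2 fold change of 1.13 ± 0.21 with an edgeR adjusted p of 0.0397. Of the hypusine enzymes, Dohh was at 17.5 ± 2.53 FPKM in sham and 29.3 ± 1.07 FPKM in ischemia, a log2 fold change of 0.64 ± 0.22 with an edgeR adjusted p of 0.113. Dhps, the enzyme of the step before, was at 27.9 ± 3.67 FPKM in sham and 26.0 ± 6.38 FPKM in ischemia, with overlapping groups and a log2 fold change of -0.21 ± 0.28 (edgeR adjusted p 0.634).

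Myc, which with Max activates genes of growth and of polyamine synthesis, was at 2.43, 1.89 and 2.87 FPKM in sham and at 29.8, 74.6 and 46.3 FPKM in ischemia. Myc rose by a log2 fold change of 4.29 ± 0.35 with an edgeR adjusted p of 0.0246. Without any of the 3 sham samples or ischemia replicate 3, the calls of Myc, Slc3a2 and Eif5a were lost, as in those fits no gene passed, and Eif5a had an edgeR adjusted p of 0.0571 without ischemia replicate 2.

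In the lower direction, Adi1 and Aldh9a1 were among the genes with the lowest p and did not pass the adjusted threshold. Adi1, an enzyme of methylthioadenosine salvage, had 14.7, 8.91 and 13.2 FPKM in sham and 8.74, 4.76 and 4.05 FPKM in ischemia, a log2 fold change of -1.13 ± 0.34 with an edgeR adjusted p of 0.0870. Aldh9a1, an aldehyde dehydrogenase acting on polyamine-derived aldehydes, had 39.8, 42.9 and 36.7 FPKM in sham and 33.6, 15.4 and 19.2 FPKM in ischemia, a log2 fold change of -0.90 ± 0.35 with an edgeR adjusted p of 0.135. Sat2, a homolog of Sat1, was at 27.3, 17.2 and 22.3 FPKM in sham and at 16.9, 4.36 and 8.23 FPKM in ischemia, with a log2 fold change of -1.23 ± 0.50 and an edgeR adjusted p of 0.152. In Adi1, Aldh9a1 and Sat2 all ischemia samples lay below all sham samples.

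**Figure D5:**
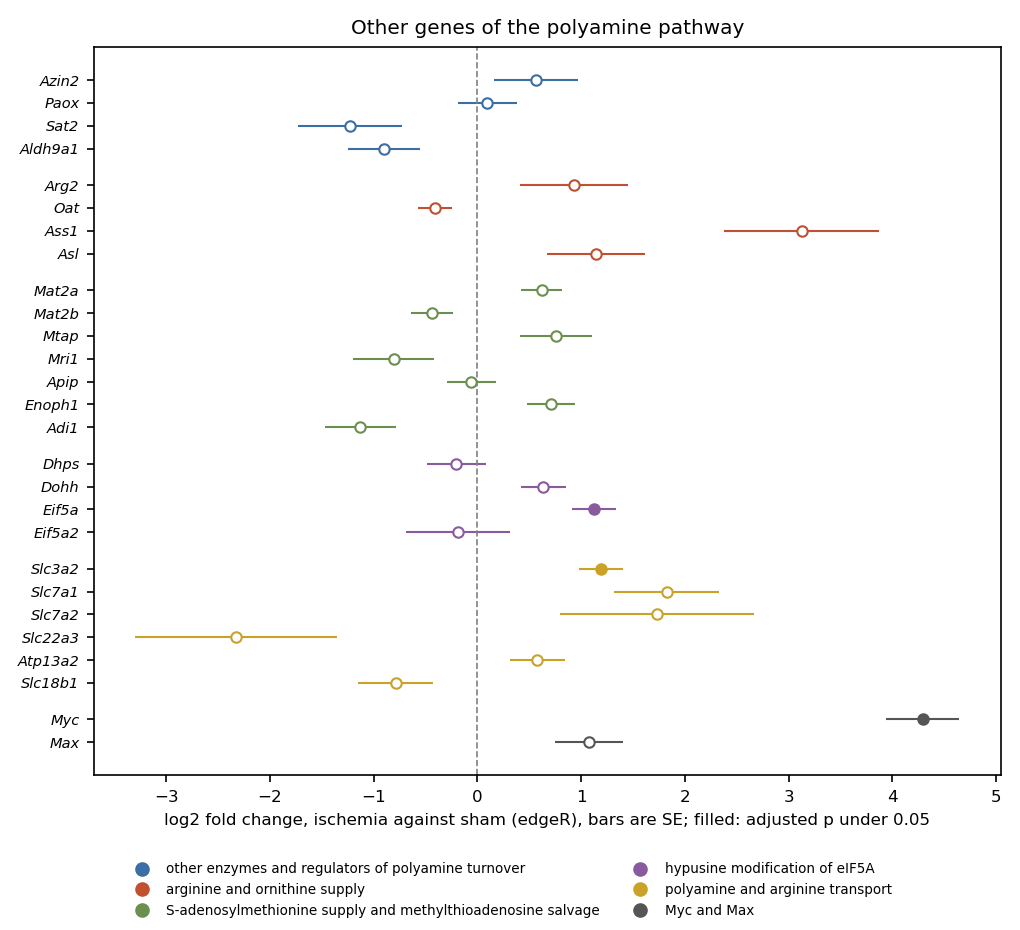
Log2 fold change of ischemia against sham with its SE from edgeR for 27 of the 29 tested genes of the wider pathway, coloured by list and filled where the adjusted p was under 0.05. Eif5a, Slc3a2 and Myc are filled, from 1.13 to 4.29, and no gene drawn on the lower side is.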

How the data were processed

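Total RNA of myocardial tissue was sequenced from stranded libraries in 3 sham and 3 ischemia samples. The authors deposited 1 table with raw read counts per gene and with FPKM, fragments scaled to gene length and depth, in which genes without reads hold a small constant. The submitters' processing notes name STAR and HTSeq, while their versions, the genome build and the strand setting are not given in the sources used here, so positions are as the table lists them. Columns named Model were read as the ischemia samples, which the labels call model rats. Reads of near-identical genes could have been split or lost by the counting.

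Counts were tested with the quasi-likelihood test of edgeR 4.0.16 in R 4.3.3, scaled by the trimmed mean of M-values (TMM), without covariates. The fit took genes whose FPKM averaged 0.5 or more, and two-sided p-values were adjusted by Benjamini-Hochberg over all 13964 genes, with a threshold of 0.05. The SE came from the F statistic. Single values were compared by two-sided exact permutation tests on log2 FPKM, which cannot go below 0.1 with 3 against 3. Nothing in the labels ties each sample to its own rat, so p-values measure the spread between these samples. The script was tested on simulated data.

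Alternatives were limma 3.58.1 on log2(FPKM + 0.1) and log2(FPKM + 1), DESeq2 1.42.0, 3 other scalings, 2 other filters, summed repeated symbols, a replicate block and each sample left out; summing both spermidine synthase rows was added after seeing the data. The members and gene lists were chosen with earlier results of these data known. Named were all 9 genes, pathway genes past the adjusted threshold, the 3 with the lowest p in each direction and the 3 genes most correlated with Odc1 and with Sat1, passing over placeholder names; Dohh, Dhps, Sat2, Gm22748 and LOC100912604 were named after their values were seen. Of the tested pathway genes, 2 are counted but not reported here. Promoter sequences are from RefSeq (GRCr8), which matched 8 of the 9 genes. Figures were drawn with matplotlib 3.10.9 in Python 3.11.15.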

Additional observations from a re-analysis of the deposited data

How the results depend on the processing

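Over the alternatives, Odc1, Amd1, Srm, Sms, Azin1, Sat1, Smox and Oaz2 kept their direction. Oaz1 changed sign under DESeq2 (-0.025), median-ratio scaling (-0.025), upper-quartile scaling (-0.021) and a mean FPKM of at least 5 (-0.043), and ranged from -0.14 to 0.11 with each sample left out. DESeq2 gave log2 fold changes of 1.16 for Odc1, -0.93 for Oaz2 and 1.58 for Sat1, all past its adjusted threshold. It called 3 of the 9 genes higher and 1 lower, 9 pathway genes higher and 4 lower, and 2071 genes higher and 1742 lower in all, so that 54.3% of calls were higher against 77.2% in edgeR. Total-count scaling called 2 pathway genes higher and 83 genes lower in all, no filter 2 and 93, and a mean FPKM of at least 5 gave 291 lower genes. The causes were not tested. Of the calls in the wider pathway, Slc3a2 was not past the threshold under total-count scaling (adjusted p 0.0531) and Eif5a without a filter (0.0515).

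With the replicate number as a block, edgeR called 0 genes higher and 0 lower, 0 of the 9 genes (2 higher and 1 lower at an unadjusted p under 0.05) and 0 pathway genes, with 3349 genes at an unadjusted p under 0.05, and Srm had a log2 fold change of 1.90 and an adjusted p of 0.0943. The labels do not link same-numbered samples. Their deviations from the group means correlated at -0.0701, -0.157 and -0.194, and 0 of 6 samples correlated best with their own number, so the numbers were not taken to pair the samples. Both samples numbered 2 did share the uneven split of the spermidine synthase rows, with 21.2% (sham) and 6.68% (ischemia) of reads on LOC100912604. Whether same-numbered samples shared a processing step was not tested.

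With each sample left out, genes called ranged from 0 to 1490 higher and from 0 to 1115 lower, of the 9 genes from 0 to 4 higher and from 0 to 1 lower, and of the pathway genes from 0 to 8 higher and from 0 to 4 lower. The highest counts came without ischemia replicate 1. Log2 fold changes ranged from 1.65 to 2.22 for Srm, from 0.77 to 1.46 for Odc1, from 0.77 to 1.31 for Azin1, from 0.66 to 1.93 for Sat1, from 0.44 to 1.72 for Smox and from -1.28 to -0.67 for Oaz2. The lowest count of any of the 9 genes was 442, in Sms, at 68529126 counts or more per sample. The SE ran from 0.20 (Amd1) to 0.60 (Smox) at the same number of samples, and that of Sat1 was 0.58 with all samples and 0.24 without ischemia replicate 2.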
